A study of Mus musculus with 9 samples.

Results

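Genes of cholesterol and fatty acid synthesis were followed in mouse intrahepatic cholangiocarcinoma cells with and without an edited Vcam1 gene. The 31 members were rows of the gene count table picked by symbol, of 55276 symbols in all. They were 6 enzymes of the mevalonate arm, 11 enzymes from the formation of squalene to cholesterol, and 4 genes of regulation and sterol transport. The others were 5 genes of fatty acid supply and synthesis, and 5 of desaturation and elongation. All 31 were among the 17672 genes that passed the filter on low counts. PPTR cells are a liver cancer line from mice that carried Prom1CreERT2 and Rosa-ZsGreen, so that Cre driven by Prom1 and the ZsGreen reporter were common to every group, as was the rest of the line's genotype. The study asked which genes changed when Vcam1, a cell adhesion molecule, was disrupted. Unedited cells (ctrl, labelled WT) were compared with KO1 and KO2, each of them 1 single-cell clone made with Cas9 and a guide against exon 2 of Vcam1, all grown in serum-containing medium. RNA was sequenced in 3 libraries per group, which the study's methods describe as 3 different passages, and the labels do not say which library came from which passage. A p-value here therefore measures the spread between passages of 1 culture or 1 clone, and the effect of Vcam1 and the choice of clone cannot be told apart within a clone.

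Cholesterol is built from acetyl-CoA. The mevalonate arm makes isoprenoid units and joins them into farnesyl diphosphate, squalene is then formed and closed into lanosterol, and a series of demethylations, reductions and isomerizations turns lanosterol into cholesterol. Fatty acid synthesis starts from the same acetyl-CoA, through malonyl-CoA to palmitate, which is elongated and desaturated. Both branches are classical targets of the sterol regulatory element binding proteins (SREBPs), membrane-bound transcription factors that are released when sterols are low, with SREBP2, the product of Srebf2, better known for sterol genes and SREBP1, the product of Srebf1, for fatty acid genes. The liver is a main site of both pathways, and serum lipoproteins supply cultured cells with cholesterol.

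The libraries held between 53415907 and 125223073 estimated counts. Vcam1, given in CPM (counts scaled to a common library size after TMM normalization), stood at 257, 216 and 345 in ctrl, 97.9, 92.1 and 121 in KO1, and 118, 100.4 and 82.9 in KO2. It was lower in all 6 KO libraries than in any ctrl library, by 1.32 ± 0.20 (SE) on the log2 scale in KO1 and 1.41 ± 0.20 in KO2 (adjusted p = 0.000347 and 0.000293, edgeR's quasi-likelihood test, adjusted over all tested genes after Benjamini and Hochberg, as for every adjusted p below). Of 10 biliary and epithelial markers, 7 fell and 1 rose in each clone. Over all tested genes, 30.0% fell and 29.9% rose in KO1, and 26.1% and 25.3% in KO2. With both clones combined, 21.2% of all tested genes fell and 21.7% rose. The keratin Krt8 stood at 5388, 5242 and 5843 CPM in ctrl and at 0.495 CPM or less in the 6 KO libraries. Krt18 and Krt19 fell from group means of 3473 and 2340 CPM to 0.150 CPM or less. The summed level of the list was 14060 to 15180 CPM in ctrl, 10030 to 10980 in KO1 and 7627 to 11040 in KO2, most of it Spp1 in the clones. The summed level of 10 hepatocyte markers was 247 to 462, 5.29 to 8.18 and 9.96 to 11.9 CPM in the same order, with a group mean of 232 CPM for Hnf4a and 82.0 CPM for Ttr in ctrl, and Hnf4a at 0 in all 6 KO libraries. Of the 7 hepatocyte markers tested, 5 fell and 1 rose with both clones combined. The summed level of 10 fibroblast markers was 452 to 866, 10440 to 12320 and 6213 to 7603 CPM. Of the 8 tested, 5 rose and 1 fell in KO1, and 6 rose and 0 fell in KO2. The marker that fell was Dcn, at group means of 75.5 CPM in ctrl, 4.18 in KO1 and 92.2 in KO2. Col1a1 rose from a group mean of 100.5 CPM to 8325 in KO1 and 4744 in KO2, Col3a1 from 34.5 to 1626 and 336 CPM, and Acta2 from 1.38 to 48.5 and 7.45 CPM. Haematopoietic markers (8 genes) summed to at most 21.8 CPM and endothelial markers (6 genes) to at most 4.42 CPM in any library, with Ptprc, Cd3e and Pecam1 each at a group mean below 1 CPM in every group. With both clones combined, 1 of the 4 haematopoietic markers tested rose and 2 fell, Cd68 not passing at 5.69, 5.11 and 7.97 CPM. Of the 3 endothelial markers tested, 1 rose and 1 fell in KO1, and 1 rose and 0 fell in KO2. Counts over so few haematopoietic and endothelial genes say little beside the shares of all tested genes. The edited clones thus differed from ctrl in epithelial and mesenchymal genes together with the lipid genes, and the part of that difference in the results below was not tested.

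Promoters are shown here because the members share regulators. RefSeq promoters of GRCm38.p6 (250 bases before to 50 after each start) were found for 24 of the 31 members, and were searched on both strands for the sterol regulatory element (TCACNCCAC), the NF-Y motif (CCAAT) and the Sp1 motif (GGGCGG). The NF-Y motif was present in 21 of the 24, among them 14 of 14 sterol enzymes and 4 of 7 fatty acid enzymes, against 41.1% of 27025 genes with a promoter in the table, where a gene with several starts was counted once, for a match in any of them. The Sp1 motif was present in 19 of the 24, in 13 of 14 sterol enzymes and 3 of 7 fatty acid enzymes, against 38.2%. The full sterol element was present in Hmgcs1 only, against 1.44% of all genes, and without its last letter (TCACNCCA) in Hmgcs1, Msmo1 and Srebf2, against 4.97%. A match is a description of letters and not a measured binding site. Here 6 stretches upstream of the start are printed 5′ to 3′ on the strand of the gene, with the sterol element and CCAAT or its complement ATTGG in capitals. Hmgcs1 carries the full element, Mvk has 5 CCAAT boxes, Mvd and Lss stand for the mevalonate arm and the steps after squalene, Srebf2 is the regulator, and Fasn stands for fatty acid synthesis, with 2 CCAAT boxes that overlap on opposite strands.
Hmgcs1 (chr13:119690171-119690350, + strand): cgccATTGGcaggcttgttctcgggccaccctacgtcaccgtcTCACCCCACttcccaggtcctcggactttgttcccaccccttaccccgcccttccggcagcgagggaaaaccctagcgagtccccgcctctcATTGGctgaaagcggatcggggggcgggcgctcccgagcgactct
Mvk (chr5:114444089-114444268, + strand): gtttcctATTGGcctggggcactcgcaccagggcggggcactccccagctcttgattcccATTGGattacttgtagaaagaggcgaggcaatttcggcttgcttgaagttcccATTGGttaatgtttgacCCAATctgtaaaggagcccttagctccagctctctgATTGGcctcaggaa
Mvd (chr8:122443423-122443602, - strand): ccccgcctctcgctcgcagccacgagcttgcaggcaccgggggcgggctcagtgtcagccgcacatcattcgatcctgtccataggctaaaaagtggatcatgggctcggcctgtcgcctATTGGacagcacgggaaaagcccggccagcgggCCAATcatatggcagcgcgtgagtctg
Lss (chr10:76531425-76531587, + strand): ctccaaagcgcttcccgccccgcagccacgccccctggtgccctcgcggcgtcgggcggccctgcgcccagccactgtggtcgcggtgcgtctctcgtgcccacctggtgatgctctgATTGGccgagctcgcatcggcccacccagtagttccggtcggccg
Srebf2 (chr15:82147089-82147180, + strand): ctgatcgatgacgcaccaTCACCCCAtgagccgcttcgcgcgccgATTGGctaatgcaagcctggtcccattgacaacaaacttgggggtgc
Fasn (chr11:120824548-120824727, - strand): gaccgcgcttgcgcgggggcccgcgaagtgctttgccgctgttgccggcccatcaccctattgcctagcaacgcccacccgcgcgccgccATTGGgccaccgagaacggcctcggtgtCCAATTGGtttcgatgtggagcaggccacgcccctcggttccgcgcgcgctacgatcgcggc

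Sterol synthesis genes were lower in both clones, and fatty acid synthesis genes were mixed. In KO1, 19 of the 31 members fell and 4 rose, where 30.0% of all tested genes were called lower and 29.9% higher. In KO2, 14 fell and 3 rose, where the shares of all genes were 26.1% and 25.3%. The median log2 fold change of the members was -0.84 in KO1 and -0.59 in KO2, beside 0.02 and 0.00 over all tested genes. Among the 17 sterol enzymes, 15 fell in KO1 and 11 in KO2, and 0 rose in either (0 also at an unadjusted p under 0.05, and 0 with limma-voom and DESeq2). Among the 10 fatty acid enzymes, 4 rose and 2 fell in KO1, and 3 rose and 1 fell in KO2. Without KO1 replicate 3, 5 members rose in KO2. Both clones were set against the same 3 ctrl libraries, so that their counts are not independent of each other. In sequenced cultures, fewer cells that express a gene and less RNA of it per cell cannot be told apart.

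**Figure D1:**
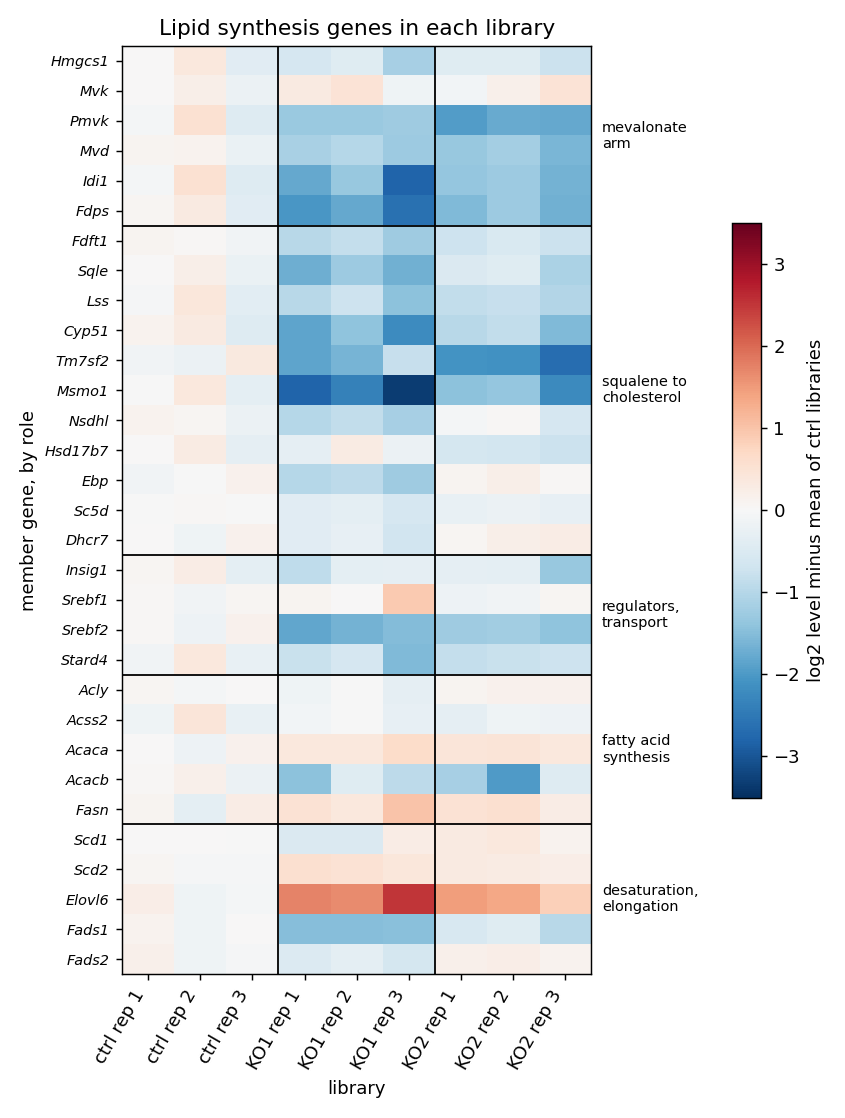
Level of the 31 members (rows, by role) in the 9 libraries (columns), as the log2 level minus the mean of the 3 ctrl libraries, blue for lower and red for higher. Most rows of the mevalonate arm and the squalene-to-cholesterol enzymes are blue in KO1 and KO2, Srebf2 and Fads1 are blue in all 6 KO libraries, and Elovl6 is red in all 6.

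With both clones combined, in a fit in which the difference between clones counts as spread, 15 members fell and 4 rose, where 21.2% of all tested genes were called lower and 21.7% higher. The median of the members was -0.52 and that of all genes 0.07. Sterol enzymes made up 12 of the 15. Without ctrl replicate 1 or ctrl replicate 2 the members that fell were 11, and without ctrl replicate 1, 2 or 3, KO1 replicate 1 or KO2 replicate 1 the members that rose were 2. The 6 KO libraries all lay below the 3 ctrl libraries for 16 members and all above for 4, and over all tested genes for 24.2% and 19.7%. For the sterol enzymes these numbers were 12 and 0 of 17.

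The mevalonate arm fell at 5 of its 6 steps in KO1 and at 4 in KO2. Fdps (farnesyl diphosphate synthase, chromosome 3, 89093588 to 89101959, - strand, GRCm38) stood at 257, 307 and 187 CPM in ctrl, 59.6, 71.3 and 40.2 in KO1, and 83.9, 102 and 75.9 in KO2. All 3 groups were separate, with KO1 lowest. Its mean was 22.8% of the ctrl mean in KO1 and 34.8% in KO2, a log2 fold change of -2.09 ± 0.25 (SE, adjusted p = 7.48e-05) and -1.50 ± 0.24 (adjusted p = 0.000648). Idi1, the isomerase that provides the second isoprenoid unit, stood at 44.5, 67.1 and 34.0 CPM in ctrl, 13.5, 18.5 and 6.60 in KO1, and 18.3, 19.2 and 14.7 in KO2. It fell by 1.87 ± 0.37 on the log2 scale in KO1 and by 1.47 ± 0.36 in KO2 (adjusted p = 0.00165 and 0.00734), and the clones overlapped. Of the 31-base words of their annotated transcripts, Fdps shared 27.9% and Idi1 18.8% with other genes, chiefly Gm43738 and Gm13502. These partners stood at 2.26 CPM or less, and how far the sharing made the counts of Fdps and Idi1 uncertain was not tested.

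Pmvk and Mvd, which turn phosphomevalonate into isopentenyl diphosphate, also fell in both clones. Pmvk stood at 25.2, 38.0 and 19.4 CPM in ctrl, 10.7, 10.8 and 11.2 in KO1, and 6.78, 7.84 and 7.64 in KO2, so that every KO library lay below every ctrl library. The log2 fold change of Pmvk was -1.28 ± 0.24 in KO1 and -1.88 ± 0.25 in KO2 (adjusted p = 0.00137 and 0.000185). Mvd stood at 30.1, 30.6 and 24.0 CPM in ctrl, 12.8, 14.0 and 11.6 in KO1, and 11.2, 12.3 and 9.25 in KO2. The groups of Mvd did not overlap with ctrl, and it fell by 1.08 ± 0.16 in KO1 and 1.35 ± 0.16 in KO2 on the log2 scale (adjusted p = 0.000329 and 0.000108).

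Hmgcs1 makes HMG-CoA at the head of the pathway. It stood at 113, 145 and 85.8 CPM in ctrl, 74.9, 83.2 and 50.3 in KO1, and 84.1, 84.4 and 66.3 in KO2, with the lowest ctrl library close to the highest KO libraries. Hmgcs1 fell in KO1 by 0.68 ± 0.23 on the log2 scale (adjusted p = 0.0296), and was -0.53 ± 0.23 in KO2 without passing the test (adjusted p = 0.0808). The KO1 call of Hmgcs1 was lost without KO1 replicate 3 (adjusted p = 0.0858), ctrl replicate 1 (0.0562) or ctrl replicate 2 (0.0787). In KO2 Hmgcs1 passed without KO1 replicate 3 (0.0492) or ctrl replicate 3 (0.0249), with DESeq2 (0.0465) and with upper-quartile normalization (0.0488). Mvk (mevalonate kinase) was the step of this arm that passed in neither clone, with 22.5 to 29.9 CPM in ctrl and 23.4 to 36.7 CPM in the 6 KO libraries, and log2 fold changes of 0.29 ± 0.20 and 0.21 ± 0.20 (adjusted p = 0.251 and 0.412).

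**Figure D2:**
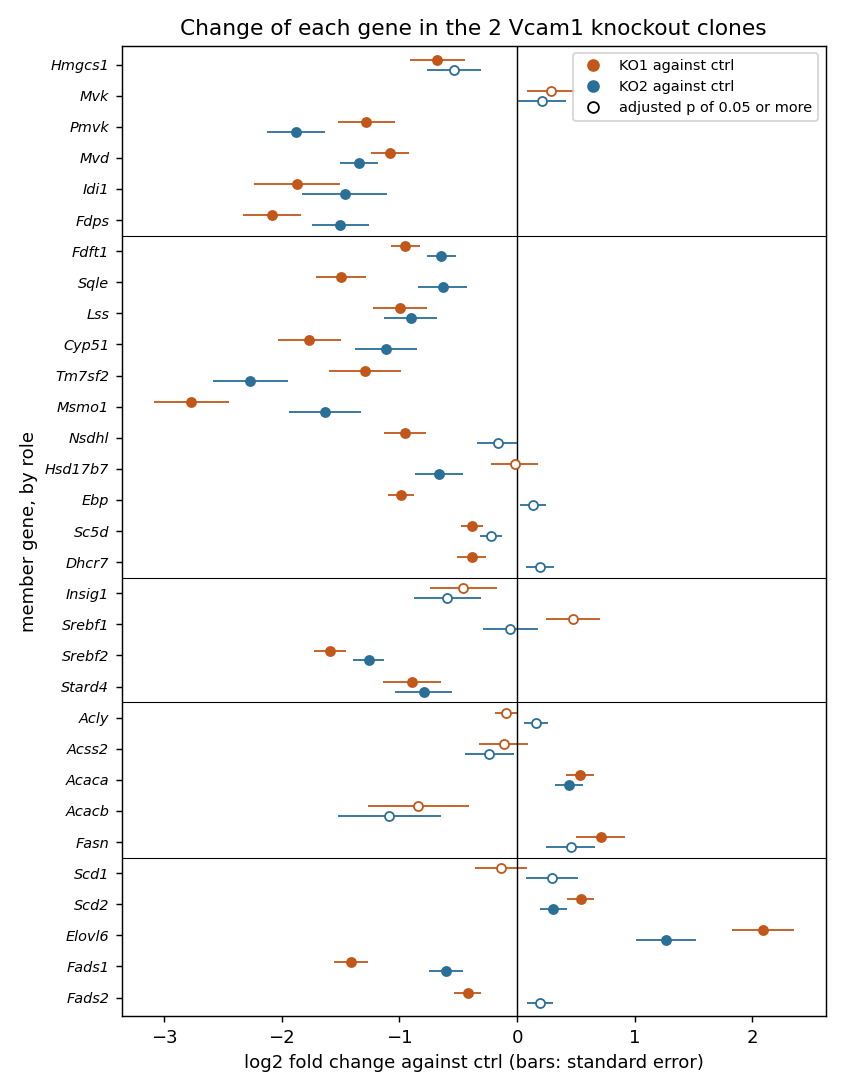
Log2 fold change of each member (rows, by role) in KO1 (orange) and KO2 (blue) against the same 3 ctrl libraries, with bars of 1 standard error and open circles where the adjusted p was 0.05 or more. Of the 17 sterol enzymes, 15 have a filled circle left of 0 in KO1, from Msmo1 at -2.77 to Sc5d at -0.39, and 11 in KO2, while Mvk is open and right of 0 in both clones, and Elovl6 lies farthest right at 2.09 in KO1 and 1.26 in KO2.

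The 3 enzymes that form squalene and turn it into lanosterol all fell in both clones. Fdft1 (squalene synthase) stood at 115, 112 and 98.5 CPM in ctrl, 55.1, 61.2 and 45.4 in KO1, and 65.6, 74.1 and 64.5 in KO2, and the 3 groups did not overlap. It fell by 0.95 ± 0.12 and 0.65 ± 0.12 on the log2 scale (adjusted p = 0.000141 and 0.00179), and shared 14.3% of its 31-base words with Gm6781, which stood at 0.144 CPM or less. Sqle (squalene epoxidase, chromosome 15, 59315077 to 59331192, + strand, GRCm38) stood at 212, 244 and 178 CPM in ctrl, 64.3, 86.5 and 65.4 in KO1, and 148, 157 and 98.0 in KO2. The 3 groups of Sqle were separate, at 34.1% and 63.6% of the ctrl mean in KO1 and KO2. The log2 fold change of Sqle was -1.50 ± 0.21 in KO1 (adjusted p = 0.000231) and -0.63 ± 0.21 in KO2 (adjusted p = 0.0284), and KO1 was below KO2 by 0.86 ± 0.21 (adjusted p = 0.0100). The KO2 call of Sqle was lost without KO2 replicate 3 (adjusted p = 0.0683), ctrl replicate 1 (0.0627) or ctrl replicate 2 (0.0770). Lss (lanosterol synthase) stood at 62.2, 84.4 and 49.1 CPM in ctrl, 32.6, 38.7 and 23.6 in KO1, and 35.2, 36.6 and 31.5 in KO2, a decrease of 0.99 ± 0.23 and 0.91 ± 0.23 on the log2 scale (adjusted p = 0.00414 and 0.00821).

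The first demethylation steps after lanosterol held the largest decrease among the members in KO1. Msmo1 is the oxidase of a demethylation step after Cyp51 (chromosome 8, 64718139 to 64733792, - strand, GRCm38). It stood at 127, 168 and 101 CPM in ctrl, 18.4, 25.1 and 12.9 in KO1, and 47.8, 51.1 and 27.5 in KO2. Every KO1 library lay below every KO2 library, and these below every ctrl library, at 14.2% and 31.8% of the ctrl mean. The log2 fold change of Msmo1 was -2.77 ± 0.32 in KO1 (adjusted p = 6.34e-05) and -1.64 ± 0.31 in KO2 (adjusted p = 0.00159). The clones differed by 1.13 ± 0.30 (KO1 lower, adjusted p = 0.0162), and this call was lost without KO2 replicate 2 (adjusted p = 0.0608). Cyp51 (lanosterol demethylase) stood at 212, 243 and 143 CPM in ctrl, 53.8, 73.5 and 42.8 in KO1, and 99.9, 107 and 67.0 in KO2. It fell by 1.77 ± 0.27 in KO1 and 1.11 ± 0.26 in KO2 on the log2 scale (adjusted p = 0.000373 and 0.00614).

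Tm7sf2, a sterol reductase that acts after Cyp51, was lower in KO2 than in KO1, the opposite order to Msmo1. It stood at 14.2, 13.4 and 19.7 CPM in ctrl, 4.32, 5.06 and 8.88 in KO1, and 3.62, 3.57 and 2.44 in KO2. The groups did not overlap, and KO1 replicate 3 was the nearest to ctrl. Its neighbour Vps51, at up to 98.9 CPM, shared 10.7% of its 31-base words, so that its low level is uncertain. Tm7sf2 fell by 1.30 ± 0.31 in KO1 and 2.27 ± 0.32 in KO2 on the log2 scale (adjusted p = 0.00482 and 0.000265). KO1 exceeded KO2 by 0.97 ± 0.31 (adjusted p = 0.0326), a call that was lost without KO1 replicate 3 (0.56, adjusted p = 0.0939) or KO2 replicates 1, 2 or 3 (adjusted p = 0.0624, 0.0688 and 0.115), with limma-voom (0.0606) and in the fit of 6 libraries (0.0574).

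Ebp, the isomerase that shifts the double bond of the sterol ring, stood at 49.5, 52.9 and 59.8 CPM in ctrl, 27.0, 28.7 and 22.7 in KO1, and 57.2, 62.1 and 55.2 in KO2. Only the KO1 libraries were low. Ebp fell by 0.99 ± 0.11 on the log2 scale in KO1 (adjusted p = 5.67e-05) and was 0.13 ± 0.11 in KO2 (adjusted p = 0.347), and the difference between the clones was -1.12 ± 0.11 (adjusted p = 0.000107).

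Nsdhl, which removes carbon at the step after Msmo1, showed the same order. It stood at 37.3, 36.3 and 30.0 CPM in ctrl, 17.2, 19.0 and 15.3 in KO1, and 32.9, 35.2 and 23.1 in KO2, where KO2 overlapped with ctrl and KO1 did not. The log2 fold change was -0.95 ± 0.18 in KO1 (adjusted p = 0.00118) and -0.16 ± 0.17 in KO2 (adjusted p = 0.462), with a difference between clones of -0.79 ± 0.18 (adjusted p = 0.00678). Dhcr7, the reductase of the last steps, stood at 31.7, 28.5 and 35.2 CPM in ctrl, 24.2, 25.8 and 19.8 in KO1, and 32.9, 36.4 and 37.6 in KO2. Dhcr7 fell in KO1 by 0.39 ± 0.12 (adjusted p = 0.0189), was 0.20 ± 0.12 in KO2 (adjusted p = 0.199), and differed between clones by -0.58 ± 0.12 (adjusted p = 0.00467). The KO1 call of Dhcr7 against ctrl was lost without KO1 replicate 3 (adjusted p = 0.0551) or ctrl replicate 3 (0.0559).

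Hsd17b7, the ketosterol reductase of the demethylation complex, was the sterol enzyme that fell in KO2 and not in KO1. It stood at 30.1, 36.4 and 24.1 CPM in ctrl, 23.8, 36.6 and 25.6 in KO1, and 19.6, 19.2 and 17.5 in KO2, so that only KO2 was separate. The log2 fold change was -0.67 ± 0.20 in KO2 (adjusted p = 0.0210) and -0.02 ± 0.20 in KO1 (adjusted p = 0.933), and KO1 exceeded KO2 by 0.65 ± 0.20 (adjusted p = 0.0324). The KO2 call of Hsd17b7 was lost without KO2 replicate 2 (adjusted p = 0.0570), KO2 replicate 3 (0.0561) or ctrl replicate 2 (0.0622). The difference between clones was lost without KO1 replicate 2 (adjusted p = 0.118), ctrl replicate 1 (0.0521) or KO2 replicates 1, 2 or 3 (0.0750, 0.0875 and 0.101). Sc5d, a sterol desaturase, fell about as little as Dhcr7 in KO1. Its levels of 52.8 to 55.0 CPM in ctrl, 35.5 to 42.4 in KO1 and 44.4 to 46.8 in KO2 did not overlap, and it fell by 0.39 ± 0.09 on the log2 scale in KO1 (adjusted p = 0.00599). In KO2 the log2 fold change of Sc5d was -0.22 ± 0.09 (adjusted p = 0.0789), which passed with DESeq2 (0.00981), upper-quartile normalization (0.0256) and a filter at a mean of 1 CPM (0.0271).

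Over the 17 sterol enzymes the summed level was 1433 ± 264 CPM in ctrl, 568 ± 108 in KO1 and 793 ± 104 in KO2 (SD, n = 3). The lowest ctrl library, at 1164 CPM, exceeded the highest KO library, at 884 CPM. In the direct comparison of the clones, 7 of the 31 members were lower in KO1 than in KO2 and 3 were higher, where 18.5% and 20.2% of all tested genes were called. Sterol enzymes were 5 of the 7 (Sqle, Msmo1, Nsdhl, Ebp and Dhcr7) and 2 of the 3 (Tm7sf2 and Hsd17b7). The members higher in KO1 than in KO2 were 1 without KO1 replicate 3 or KO2 replicate 1, and 0 without KO2 replicate 2 or KO2 replicate 3. The mevalonate arm held 0 called differences between clones with edgeR's quasi-likelihood test, limma-voom or DESeq2, and 2 of 6 at an unadjusted p under 0.05 (Pmvk higher and Fdps lower in KO1). With edgeR, Pmvk passed in the fit of 6 libraries (adjusted p = 0.0147) and without ctrl replicate 2 (0.0171) or ctrl replicate 3 (0.0354), and Fdps without a filter on low counts (0.0491) or without ctrl replicate 2 (0.0484).

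**Figure D3:**
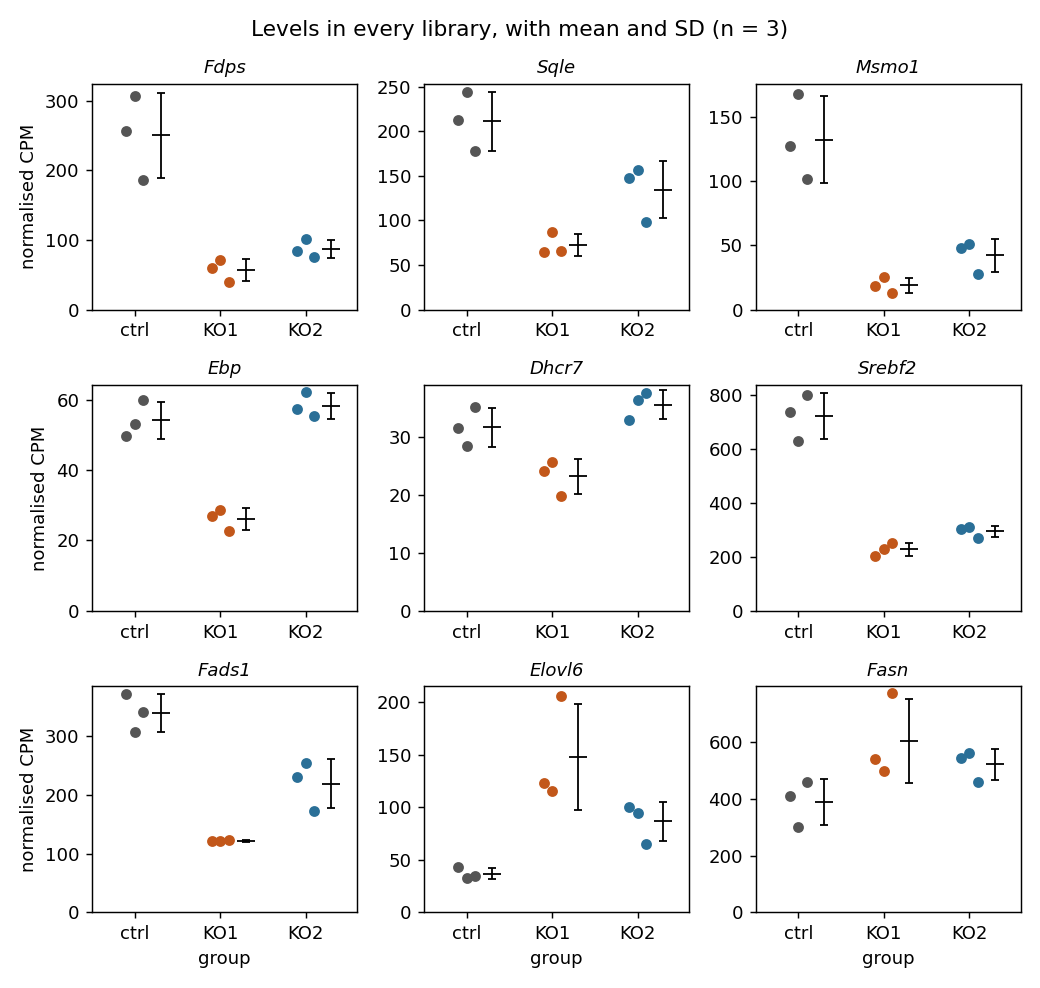
Level of 9 members in each library in normalised CPM (points, by group), with the mean and SD of 3 libraries beside them. Fdps, Sqle, Msmo1, Srebf2 and Fads1 are lower in both clones, Ebp and Dhcr7 are lower in KO1 alone, and Elovl6 lies above every ctrl library. Fasn also lies above ctrl, but only just in KO2 replicate 3 (460.6 CPM, against 459.5 in ctrl replicate 3), and did not pass in KO2.

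Of the regulators, Srebf2 changed and Srebf1 did not pass. Srebf2 (chromosome 15, 82147181 to 82205379, + strand, GRCm38) stood at 735, 629 and 798 CPM in ctrl, 203, 230 and 251 in KO1, and 302, 311 and 270 in KO2. All KO1 libraries lay below all KO2 libraries, and these below ctrl, at 31.6% and 40.8% of the ctrl mean. Srebf2 fell by 1.59 ± 0.13 in KO1 (adjusted p = 8.42e-06) and by 1.26 ± 0.13 in KO2 (adjusted p = 4.39e-05) on the log2 scale, and the difference between clones, -0.33 ± 0.13, did not pass (adjusted p = 0.0749). That difference passed with DESeq2 (adjusted p = 0.0468) and without ctrl replicate 2 (0.0380) or KO1 replicate 3 (0.0271). Srebf1 stood at 233, 209 and 235 CPM in ctrl, 243, 227 and 423 in KO1, and 197, 207 and 234 in KO2, where KO1 replicate 3 stood apart from the other 8 libraries. Its log2 fold change was 0.48 ± 0.23 in KO1 (adjusted p = 0.103) and -0.06 ± 0.23 in KO2 (adjusted p = 0.859), and KO1 passed without KO1 replicate 2 (adjusted p = 0.0366). Insig1, which holds SREBPs in the endoplasmic reticulum and is itself a known SREBP target, ranged from 91.2 to 136 CPM in ctrl, 61.4 to 91.5 in KO1 and 45.8 to 91.8 in KO2. Its log2 fold changes of -0.46 ± 0.29 and -0.59 ± 0.29 did not pass (adjusted p = 0.193 and 0.112).

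Stard4, a carrier that moves cholesterol between membranes, followed the sterol enzymes. It stood at 58.6, 82.4 and 52.4 CPM in ctrl, 36.7, 42.4 and 21.8 in KO1, and 35.3, 36.8 and 38.1 in KO2, below ctrl in all 6 libraries. Stard4 fell by 0.89 ± 0.24 in KO1 and 0.79 ± 0.24 in KO2 on the log2 scale (adjusted p = 0.0105 and 0.0215). The KO2 call of Stard4 was lost without KO2 replicate 1 (adjusted p = 0.0635), KO2 replicate 2 (0.0627) or ctrl replicate 2 (0.0763).

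Fatty acid synthesis enzymes did not share the decrease. Acaca, the acetyl-CoA carboxylase that makes malonyl-CoA for synthesis, stood at 87.0, 76.3 and 95.4 CPM in ctrl, 112, 111 and 135 in KO1, and 115, 118 and 112 in KO2. All 6 KO libraries lay above ctrl. Acaca rose by 0.54 ± 0.12 in KO1 and 0.44 ± 0.12 in KO2 on the log2 scale (adjusted p = 0.00351 and 0.0113). It shared 31.7% of its 31-base words with Gm5182, at 0.632 CPM or less. Fasn (fatty acid synthase, chromosome 11, 120805846 to 120824547, - strand, GRCm38) stood at 409, 300 and 459 CPM in ctrl, 540, 500 and 773 in KO1, and 543, 563 and 461 in KO2. Fasn rose in KO1 by 0.71 ± 0.21 (adjusted p = 0.0145), was 0.46 ± 0.21 in KO2 without passing (adjusted p = 0.0935), and passed in KO2 without KO1 replicate 3 (adjusted p = 0.0249). Without ctrl replicate 2 the KO1 call of Fasn was lost (adjusted p = 0.0708), and without KO1 replicate 3 its log2 fold change in KO1 was 0.47 (adjusted p = 0.0345).

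The enzymes that supply acetyl-CoA did not pass in either clone. Acly, which splits citrate, ranged from 339 to 373 CPM in ctrl, 289 to 353 in KO1 and 381 to 401 in KO2, with log2 fold changes of -0.09 ± 0.10 and 0.16 ± 0.10 (adjusted p = 0.457 and 0.211). Acss2, which activates acetate, ranged from 9.33 to 15.0 CPM in ctrl and from 8.96 to 11.1 CPM in the KO libraries, with log2 fold changes of -0.12 ± 0.21 and -0.24 ± 0.21 (adjusted p = 0.654 and 0.369). Acacb, the carboxylase better known for restraining fatty acid oxidation, was at 0.942 to 1.25 CPM in ctrl and 0.257 to 0.811 CPM in the KO libraries. It lay below ctrl in all 6 but did not pass, at -0.84 ± 0.43 in KO1 and -1.09 ± 0.44 in KO2 (adjusted p = 0.120 and 0.0632), and KO2 passed without KO2 replicate 3 (adjusted p = 0.0200), with limma-voom (0.0364) and with DESeq2 (0.0315). With the clones combined Acacb was -0.96 ± 0.38 (adjusted p = 0.0695), and passed with limma-voom (0.0459), DESeq2 (0.0307), averaged clone contrasts (0.0438) and without KO2 replicate 3 (0.0458).

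Elongation and desaturation held both the largest increase and a clear decrease. Elovl6, which elongates palmitate, (chromosome 3, 129532355 to 129638495, + strand, GRCm38) stood at 42.7, 33.0 and 34.5 CPM in ctrl, 123, 116 and 207 in KO1, and 100.3, 94.1 and 65.3 in KO2. The 3 groups did not overlap, at 404% and 236% of the ctrl mean. Elovl6 rose by 2.09 ± 0.26 in KO1 (adjusted p = 0.000111) and 1.26 ± 0.26 in KO2 (adjusted p = 0.00254). KO1 exceeded KO2 by 0.82 ± 0.25 (adjusted p = 0.0294), which was lost without KO1 replicate 3 (0.47, adjusted p = 0.0758), KO2 replicate 2 (adjusted p = 0.0650) or KO2 replicate 3 (adjusted p = 0.107), and in the fit of 6 libraries (0.0550). Fads1, a desaturase of polyunsaturated fatty acids, (chromosome 19, 10182888 to 10196877, + strand, GRCm38) stood at 372, 307 and 341 CPM in ctrl, 121, 122 and 124 in KO1, and 231, 255 and 173 in KO2. The 3 groups were separate, and the SD among the KO1 libraries was 1.39 CPM. Fads1 fell by 1.41 ± 0.15 in KO1 (adjusted p = 3.23e-05) and 0.60 ± 0.14 in KO2 (adjusted p = 0.00631), with KO1 below KO2 by 0.81 ± 0.14 (adjusted p = 0.00237).

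Fads2, the desaturase that acts before Fads1, fell in KO1 alone. It stood at 299, 237 and 254 CPM in ctrl, 187, 207 and 171 in KO1, and 294, 307 and 284 in KO2. The log2 fold change of Fads2 was -0.42 ± 0.11 in KO1 (adjusted p = 0.00937) and 0.19 ± 0.11 in KO2 (adjusted p = 0.179), and the difference between clones was -0.62 ± 0.11 (adjusted p = 0.00267). Scd2, a desaturase that makes monounsaturated fatty acids, stood at 1616, 1509 and 1493 CPM in ctrl, 2250, 2170 and 2010 in KO1, and 1920, 1871 and 1822 in KO2. Scd2 rose by 0.54 ± 0.11 in KO1 (adjusted p = 0.00248) and 0.31 ± 0.11 in KO2 (adjusted p = 0.0440), the latter lost without any 1 of 8 of the 9 libraries (adjusted p from 0.0643 without KO1 replicate 2 to 0.123 without KO2 replicate 1), with upper-quartile normalization (0.0958), with a filter at a mean of 1 CPM (0.0501) and with no filter (0.171). Scd1, its close relative (5.84% of 31-base words shared with Scd3, as were 4.83% of Scd2), stood at 494, 490 and 481 CPM in ctrl, 342, 341 and 587 in KO1, and 611, 630 and 527 in KO2. KO1 replicate 3 lay above ctrl and the other KO1 libraries below it. The log2 fold changes of Scd1, -0.13 ± 0.22 and 0.30 ± 0.22, did not pass (adjusted p = 0.621 and 0.291). Without KO1 replicate 3, Scd1 passed in KO1 at -0.47 (adjusted p = 0.00700), in KO2 at 0.30 (0.0325) and between clones at -0.78 (0.00138).

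Over the 10 fatty acid enzymes the summed level was 3515 ± 199 CPM in ctrl, 4083 ± 197 in KO1 and 4102 ± 217 in KO2 (SD, n = 3), with no overlap between the highest ctrl library, at 3704 CPM, and the lowest KO library, at 3853 CPM. Without Scd2 the sum of the other 9 was 1975 ± 155 CPM in ctrl, 1939 ± 308 in KO1 and 2231 ± 180 in KO2. The median log2 fold change of the 10 was -0.10 in KO1 and 0.24 in KO2.

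To compare levels between genes, CPM was divided by the length of the principal transcript in kb. On this scale Scd2 was the highest member in ctrl, at 282 ± 12.3 CPM per kb, followed by Fdps at 181 ± 43.95 and Srebf2 at 142 ± 16.9 (SD, n = 3), and Fdps and Srebf2 lay within their spread. Acacb was the lowest, at 0.126 CPM per kb. Among the 31, Fdps held place 2 in ctrl, 8 in KO1 and 6 in KO2, Msmo1 places 9, 19 and 15, and Elovl6 places 29, 12 and 18.

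**Figure D4:**
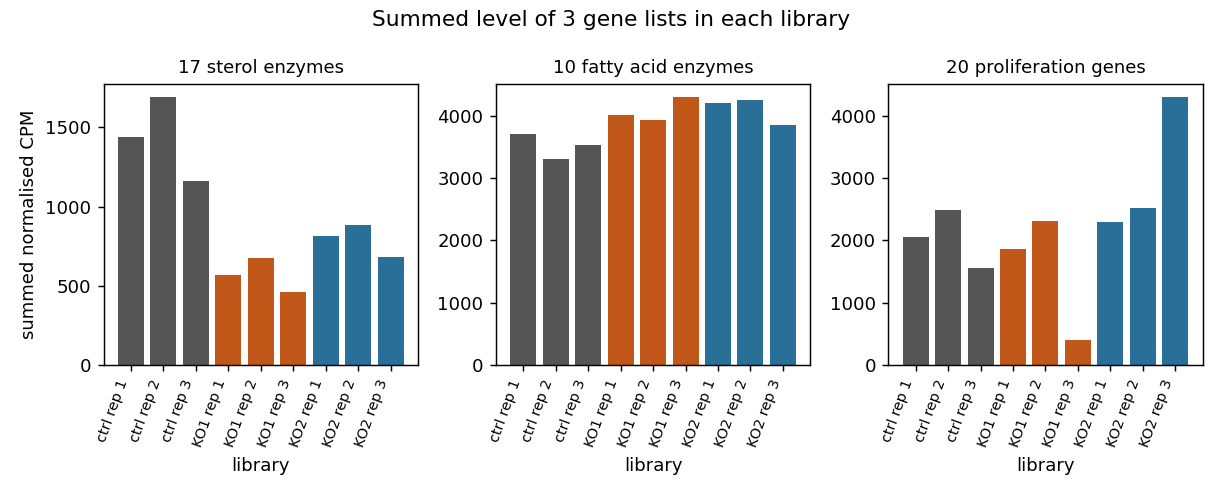
Summed normalised CPM in each of the 9 libraries (bars, coloured by group) of the 17 sterol enzymes, the 10 fatty acid enzymes and 20 proliferation genes. The sterol sum is lower in all 6 KO libraries, the fatty acid sum is higher in all 6, and the proliferation sum is lowest in KO1 replicate 3 (405 CPM) and highest in KO2 replicate 3 (4298 CPM).

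Libraries of 1 clone differed in growth genes. Mki67, a proliferation marker, stood at 160, 175 and 120 CPM in ctrl, 214, 238 and 26.1 in KO1, and 177, 181 and 331 in KO2. The summed level of 20 proliferation genes was 1550 to 2488 CPM in ctrl, with KO1 replicate 3 below at 405 and KO2 replicate 3 above at 4298. In KO1 replicate 3 Srebf1, Scd1, Fasn, Elovl6 and Tm7sf2 were the highest of the KO1 libraries, and Hmgcs1, Idi1, Fdps and Msmo1 the lowest. In KO2 replicate 3 Hmgcs1, Idi1, Fdps and Msmo1 were also the lowest of the KO2 libraries. Scd1, Fasn, Elovl6 and Tm7sf2 were lowest there too, and Srebf1 was highest. The summed level of the 17 sterol enzymes was lowest in replicate 3 of each clone, at 461 CPM in KO1 and 679 in KO2. Without both of these libraries, 20 members fell and 3 rose in KO1, and 13 fell and 5 rose in KO2, and of the sterol enzymes 14 and 9 fell. Calls lost without both were those of Hmgcs1 (adjusted p = 0.0579) and Fasn (0.0523) in KO1, of Sqle (0.0590) and Hsd17b7 (0.0516) in KO2, of Hmgcs1 (0.0656) and Sqle (0.0580) with the clones combined, and of Tm7sf2 (0.221), Hsd17b7 (0.0940) and Elovl6 (0.151) between clones. Calls gained were those of Insig1 (lower, adjusted p = 0.0402) and Scd1 (lower, 0.0021) in KO1, of Acacb (lower, 0.0208), Fasn (higher, 0.0277) and Scd1 (higher, 0.0125) in KO2, and of Srebf2 (0.0225) and Scd1 (0.00074), both lower in KO1 than in KO2. Of the 20 proliferation genes, 0 rose and 1 fell in KO1, and 1 rose and 0 fell in KO2, with medians of -0.33 and 0.60 on the log2 scale. Over all tested genes 29.9% rose and 30.0% fell in KO1, and 25.3% and 26.1% in KO2. Their summed level was 1528 ± 999 CPM in KO1 and 3034 ± 1101 in KO2 (SD, n = 3). With that spread, the few calls do not show that proliferation genes were unchanged. With both clones combined, Tyms, Plk1 and Bub1 had log2 fold changes of 1.14, 1.10 and 1.08 that did not pass (adjusted p = 0.0734, 0.217 and 0.212).

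Of 25 sterol genes outside the members (uptake, export, trafficking, SREBP processing and oxysterol genes), 10 fell and 6 rose in KO1, where 30.0% of all tested genes fell and 29.9% rose, and 10 fell and 6 rose in KO2, where 26.1% and 25.3% did. The median log2 fold change of these 25 was -0.27 in KO1 and -0.33 in KO2. Cyp27a1, which makes oxysterols and bile acid precursors, stood at 20.7, 15.5 and 24.6 CPM in ctrl and between 0.133 and 0.324 CPM in the KO libraries. Abca1, the cholesterol exporter induced by oxysterol receptors, stood at 22.3, 11.8 and 11.6 CPM in ctrl, 273, 236 and 273 in KO1, and 139, 125.4 and 149 in KO2. Abca1 rose by 4.16 ± 0.26 and 3.21 ± 0.25 on the log2 scale (adjusted p = 1.38e-06 and 6.89e-06).

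Of 27 further genes of fatty acid synthesis, activation and esterification, 24 were tested, of which 10 fell and 9 rose in KO1, and 10 fell and 5 rose in KO2, beside the same shares of all tested genes (30.0% and 29.9% in KO1, 26.1% and 25.3% in KO2), with medians of -0.11 and 0.10. Me1, the malic enzyme that supplies NADPH, stood at 575, 559 and 684 CPM in ctrl, 123, 137 and 96.5 in KO1, and 160, 166 and 176 in KO2, a decrease of 2.29 ± 0.14 and 1.83 ± 0.14 on the log2 scale (adjusted p = 1.12e-06 and 5.07e-06). Elovl7, an elongase, fell by 2.84 ± 0.26 and 1.21 ± 0.24 (adjusted p = 1.41e-05 and 0.00245). Hacd2, a dehydratase of the elongation cycle, rose in KO1 by 1.78 ± 0.26 (adjusted p = 0.000319) and was 0.24 ± 0.26 in KO2 (adjusted p = 0.472).

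Of 23 genes of fatty acid oxidation, 14 rose and 4 fell in KO1, and 8 rose and 3 fell in KO2, where 29.9% of all tested genes rose and 30.0% fell in KO1, and 25.3% and 26.1% in KO2. The median log2 fold changes were 0.52 and 0.08. Between the clones, 15 of the 23 were higher in KO1 and 1 was lower, where 20.2% and 18.5% of all tested genes were. Acadm, a medium-chain acyl-CoA dehydrogenase, stood at 66.0, 49.5 and 82.6 CPM in ctrl, 266, 331 and 221 in KO1, and 58.4, 63.4 and 58.8 in KO2, and only KO1 was separate. Cpt1c, a gene of the carnitine palmitoyltransferase family, rose by 3.60 ± 0.24 in KO1 and 2.66 ± 0.23 in KO2. Ppargc1a, a coactivator of oxidative metabolism, rose by 3.09 ± 0.28 and 1.22 ± 0.27 (adjusted p = 1.37e-05 and 0.00381).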

How the data were processed

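The authors sequenced stranded, paired-end libraries and deposited gene-level estimated counts from kallisto 0.46.1, run with its strand setting on GENCODE vM24 transcripts (GRCm38, mm10). How transcripts were summed to genes is not given in the sources used here. The 55276 deposited rows held whole numbers in each of the 9 columns, which were used as counts. No library pair of a group agreed within sampling noise (chi-square per degree of freedom from 35.8 to 275). With edgeR 4.0.16 in R 4.3.3, libraries were scaled by TMM, 17672 genes passed filterByExpr, and the quasi-likelihood test was run in a fit of 3 groups (each clone against ctrl, KO1 against KO2) and a fit of 2 groups (6 KO against 3 ctrl libraries). P-values were adjusted by Benjamini-Hochberg over all tested genes and called under 0.05. The model was tested on simulated counts in which chosen genes changed alike in both clones, a setting without the differences between clones seen here.

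Alternatives were limma-voom (limma 3.58.1, the study's test), DESeq2 1.42.0, upper-quartile normalization, no filter, a filter at a mean of 1 CPM, fits of 6 libraries, averaged clone contrasts, each library left out, and replicate 3 of both clones left out, the last chosen after seeing the data. Members, lists and tests were chosen with earlier results of these data known. All members were named, and of each related list the 3 tested genes of largest combined change with a mean of at least 5 CPM. Spp1, Dcn, Ptprc, Cd3e and Pecam1 were chosen after their values were seen. Some genes that this rule covers, and some alleles of the line, are not reported here. Promoters are from RefSeq (GRCm38.p6), and positions, lengths and the 31-base words from GENCODE vM21. Figures were drawn with python and matplotlib.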

Additional observations from a re-analysis of the deposited data

Results flagged for a closer look

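Levels differed between the 2 clones in 10 of the 31 members, by the direct comparison of KO1 with KO2 (edgeR's quasi-likelihood test, Benjamini-Hochberg adjustment). Editing and the choice of clone cannot be told apart in these differences. Of the 31 members, 3 were higher and 7 lower in KO1 than in KO2, and over all tested genes 20.2% were higher and 18.5% lower. On the log2 scale KO1 minus KO2 was -0.86 for Sqle, -1.13 for Msmo1, -0.79 for Nsdhl, -1.12 for Ebp, -0.58 for Dhcr7, -0.81 for Fads1 and -0.62 for Fads2. It was 0.97 for Tm7sf2, 0.65 for Hsd17b7 and 0.82 for Elovl6. The KO1 libraries all lay below the KO2 libraries for the first 7 genes and above them for the other 3.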

How the results depend on the processing

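Under the alternatives, 20 of the 23 calls in KO1, 13 of 17 in KO2, 12 of 19 in the combined comparison and 6 of 10 between clones were kept in all settings run, and 0 called members changed direction. No paired analysis was possible because the labels carry no replicate numbers shared between groups. Counts of members that rose moved by over 1.5 times: they were 2 in the combined comparison without a filter on low counts, and, without replicate 3 of both clones, 5 in KO2 and 0 between clones. Leaving out 1 library gave 2 to 5 in KO2 (3 with all libraries), 2 to 4 in the combined comparison (4 with all) and 0 to 4 between clones (3 with all). Members that fell numbered 18 to 19, 11 to 15, 11 to 15 and 6 to 10 in KO1, KO2, the combined comparison and between clones when 1 library was left out. With DESeq2 17 fell in KO2, and with averaged clone contrasts 18 fell in the combined comparison. In the combined comparison the call of Fasn was lost in 9 of 16 settings, that of Scd2 in 7 and that of Sc5d in 6. The call of Hmgcs1 was lost in 5, that of Sqle in 3, and those of Fads1 and Stard4 in 1 each.

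Signs turned only in results that did not pass. Hsd17b7 in KO1 was 0.017 with limma-voom and 0.002 without replicate 3 of both clones. Acly in the combined comparison was -0.001 with DESeq2 and -0.003 without a filter. Without replicate 3 of both clones, Srebf1 was -0.037 and Scd1 -0.014 in the combined comparison, and between clones Insig1 was -0.27, Stard4 0.128, Acaca -0.072 and Fasn -0.094. Leaving out 1 library gave -0.217 to 0.101 for Hsd17b7, -0.272 to 0.097 for Acss2 and -0.474 to 0.014 for Scd1 in KO1, and -0.387 to 0.019 for Acss2 in KO2. In the combined comparison it gave -0.025 to 0.088 for Acly, -0.33 to 0.059 for Acss2, -0.18 to 0.02 for Dhcr7 and -0.171 to 0.001 for Fads2. Between clones it gave -0.034 to 0.153 for Acaca, -0.089 to 0.694 for Acacb, -0.281 to 0.026 for Hmgcs1, -0.163 to 0.266 for Insig1, -0.248 to 0.063 for Lss, -0.101 to 0.221 for Mvk and -0.289 to 0.119 for Stard4. The cause was not tested. Without its last letter the sterol element was found for 3 members in place of 1. Upper-quartile normalization moved the median of all genes between clones to 0.11 and leaving out the filter moved that of the combined comparison to 0.11. Each clone is 1 cell's descendants and its libraries are passages, so that differences between clones and between passages limit what the 3 libraries per group can show.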
